A study of Mus musculus with 8 samples.

Results

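The liver forms bile by moving bile salts, phospholipid and organic anions out of hepatocytes, and 9 genes that carry out or protect this transport were followed here in the livers of *Apoe*-/- mice given isoginkgetin (ISOGK) or vehicle. They were taken by symbol from a table of 16540 genes: *Abcb11*, *Abcb4*, *Abcc2* and *Atp8b1* for canalicular export, *Abcc3*, *Abcc4* and *Slc51b* for basolateral export, and *Slc10a1* and *Slc10a2* for uptake. *Atp8b1*, whose product flips lipids within the canalicular membrane, was grouped with canalicular export. All 9 genes were in the table, and 8 of them had enough counts to be tested. Of these, *Abcb11* and *Atp8b1* were lower with ISOGK, *Abcb4* was higher, and the difference of the other 5 did not pass the test.

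Liver RNA was sequenced from 4 mice per group, with 1 library per mouse. All 8 were male *Apoe*-/- mice, which lack apolipoprotein E in every tissue and have high plasma cholesterol, and all were fed a cholesterol-rich diet that the labels call a Western diet. The treated group received ISOGK, a biflavonoid studied as an inhibitor of ATP citrate lyase, by intraperitoneal injection at 20 mg/kg per day for 8 weeks, and the control group received the vehicle, DMSO. The age of the mice is not given in the sources used here. No group without the knockout or the diet was sequenced among these 8 libraries, so the levels below are those of a cholesterol-loaded liver.

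Hepatocytes are polarized cells. Their basolateral membrane faces the blood, and SLC10A1 (NTCP) takes up conjugated bile salts there together with sodium. Their canalicular membrane faces the bile channel, and ABCB11, the bile salt export pump, moves bile salts across it against a steep gradient. ABCB4 (MDR2) brings phosphatidylcholine into bile, where it forms mixed micelles that shield the biliary epithelium from bile salts, ABCC2 (MRP2) exports conjugated organic anions such as bilirubin glucuronides, and ATP8B1 (FIC1) flips aminophospholipids inward and keeps the canalicular membrane ordered. ABCC3 (MRP3), ABCC4 (MRP4) and the heteromer of SLC51A and SLC51B (OST) return bile salts and conjugates to the blood, and SLC10A2 (ASBT) takes up bile salts in ileum, kidney and bile duct cells. The bile acid receptor FXR, encoded by *Nr1h4*, is known to induce *Abcb11* through an inverted repeat of its binding site.

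The promoters of *Abcb11* and *Abcb4* are shown because these had the smallest edgeR adjusted p-values among the tested members and went in opposite directions. Both are the 250 bases before the RefSeq start, 5′ to 3′, in GRCm38.p6. That of *Abcb11* lies on the minus strand at chr2:69342617-69342866, and its capitals mark the match to the site AGGNCA followed by 1 base of any kind and the reverse complement of that site. That of *Abcb4* lies on the plus strand at chr5:8893471-8893720, and its capitals mark a GC box (GGGCGG).
Abcb11: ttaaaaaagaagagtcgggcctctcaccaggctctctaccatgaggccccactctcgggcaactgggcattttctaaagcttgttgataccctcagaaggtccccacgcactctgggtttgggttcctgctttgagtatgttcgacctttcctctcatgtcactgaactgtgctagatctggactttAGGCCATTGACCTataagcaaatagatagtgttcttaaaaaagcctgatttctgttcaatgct
Abcb4: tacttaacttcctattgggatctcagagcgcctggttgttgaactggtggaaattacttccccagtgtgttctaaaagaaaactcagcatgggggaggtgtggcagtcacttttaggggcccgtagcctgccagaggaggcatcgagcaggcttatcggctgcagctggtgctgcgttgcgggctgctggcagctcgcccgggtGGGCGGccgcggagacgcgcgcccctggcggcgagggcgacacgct

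The inverted repeat in the *Abcb11* promoter ran from base 63 to base 51 before the start. On either strand, 28 of 32851 mouse promoters of this length held such a repeat, which is 0.0852%. Promoter sequences were found for 7 of the 9 genes, with 9 starts in all, and the other 8 of these starts, including that of *Abcb4*, held no such letters. The site in its most common spelling, AGGTCA, was in 14.0% of all promoters. Its copy in the *Abcb11* promoter, read on the opposite strand, lies inside the inverted repeat. *Abcc2*, *Slc51b* and 1 start of *Slc10a1* also held 1 copy each. The same site in direct repeat with 1 base between the copies was in 0.338% of all promoters and in none of these 9 starts. *Abcc3* and *Atp8b1* had no promoter sequence and were not searched. The *Abcb11* promoter had 46.4% G and C and no GC box, whereas that of *Abcb4* had 61.6% and 1 GC box. A GC box was found in 32.7% of all promoters, and 1 start of *Abcc4* had 72.0% G and C with 3. These matches describe the letters alone, and no binding was measured.

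Between 19605286 and 24461854 reads were counted on genes per vehicle library and between 17457106 and 21626399 per ISOGK library. The hepatocyte markers were high in every library, at 155874 to 169420 summed CPM (TMM-normalized counts scaled to a fixed library size) in vehicle and 145566 to 197860 in ISOGK livers for the 9 of 10 listed markers in the table, and none of them was called. All 10 skeletal muscle markers were highest in vehicle mouse 4, where they had 27 to 451 counts, while no other library held more than 9. ISOGK mouse 4 stood apart in other genes, with 16848 CPM of *Fgb* (fibrinogen beta) against 6707 to 7042 CPM in the other 3 ISOGK livers, 11585 CPM of *Hpx* (hemopexin) against 4370 to 6594 CPM, and 5.34 CPM of the macrophage marker *Vsig4* against 75.05 to 94.4 CPM. It was also the lowest of the 8 livers for *Abcb11*, *Abcc2*, *Abcc3* and *Slc10a1*. Without it their log2 fold changes were -0.99, 0.01, 0.19 and 0.06, and *Abcb11* alone of these was called (edgeR adjusted p = 0.00378), while *Abcb4* was at 0.87 and remained called. In the test of all genes with edgeR, 929 of 12307 genes were called at an adjusted p under 0.05, which is 7.55%. Of the 8 tested members 3 were called, 1 of them higher and 2 lower, beside 4.11% of all tested genes that were higher and 3.44% that were lower. The groups did not overlap in these same 3 members, beside 15.3% of all tested genes. An absolute log2 fold change over 1 in addition was reached by 1.63% of all tested genes and by *Abcb11* alone among the members.

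**Figure D1:**
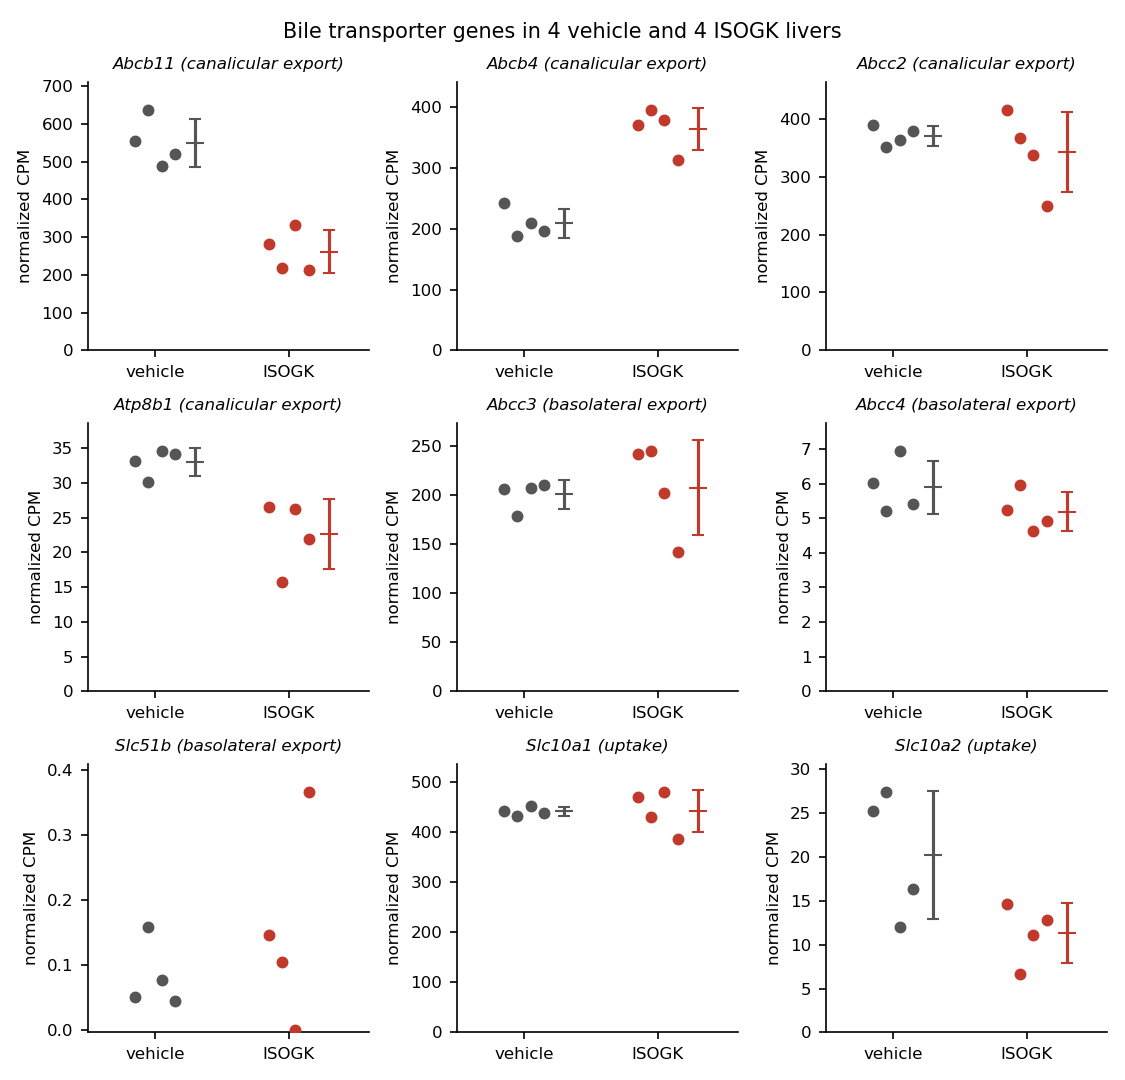
Normalized CPM (y axis, from 0, a separate scale for each gene) of the 9 transporter genes in 4 vehicle (grey) and 4 ISOGK livers (red), with the role in brackets. Points are mice, in the order of their numbers, and bars are the mean ± SD, left out for *Slc51b*. All ISOGK livers lie below all vehicle livers for *Abcb11* and *Atp8b1* and above them for *Abcb4*, and the groups overlap in the other panels.

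*Abcb11* (chromosome 2, 69238282 to 69342616 in GRCm38, minus strand), whose promoter is printed above, had 555.7, 636.4, 488.9 and 521.5 CPM in vehicle mice 1 to 4. In ISOGK mice 1 to 4 it had 281.9, 219.3, 333.3 and 212.4 CPM. The highest ISOGK liver, mouse 3, lay well under the lowest vehicle liver, and ISOGK mice 2 and 4 were the lowest of all. The log2 fold change was -1.07 (95% interval -1.40 to -0.75, edgeR adjusted p = 0.00183), so the transcript of the bile salt export pump was 2.10-fold lower with ISOGK. In bulk liver RNA, fewer cells that express a gene and less of its RNA per cell cannot be told apart.

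*Abcb4* (chromosome 5, 8893717 to 8959231) went the other way. It had 241.7, 187.4, 208.8 and 196.4 CPM in vehicle mice 1 to 4 and 369.3, 394.2, 377.6 and 313.4 CPM in ISOGK mice 1 to 4. The lowest ISOGK liver, mouse 4, was above the highest vehicle liver, mouse 1. The phospholipid exporter was 1.74-fold higher with ISOGK, with a log2 fold change of 0.80 (95% interval 0.56 to 1.04, edgeR adjusted p = 0.00178). The coefficient of variation of its level was 11.4% among vehicle and 9.64% among ISOGK livers.

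*Atp8b1* had 33.1, 30.2, 34.5 and 34.2 CPM in vehicle mice 1 to 4 and 26.5, 15.8, 26.3 and 21.9 CPM in ISOGK mice 1 to 4. ISOGK mouse 2 had the lowest value. This flippase gene had a log2 fold change of -0.54 (95% interval -0.86 to -0.23, edgeR adjusted p = 0.0424). The call did not hold when any of vehicle mice 1, 2, 3 or 4 or ISOGK mice 2 or 4 was left out, with log2 fold changes of -0.54, -0.59, -0.52, -0.53, -0.40 and -0.53 and edgeR adjusted p-values of 0.0973, 0.0849, 0.106, 0.0929, 0.06 and 0.0908 in that order. *Tmem30a*, which encodes the partner subunit that ATP8B1 needs to reach the membrane, stood at 95.6 ± 12.1 CPM in vehicle and 95.2 ± 10.6 CPM in ISOGK livers (± SD, n = 4 each) (log2 fold change -0.01, 95% interval -0.25 to 0.24, edgeR adjusted p = 0.983).

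*Abcc2* (chromosome 19, 43782192 to 43840740) completed the canalicular genes. It had 389.1, 350.5, 362.7 and 378.6 CPM in vehicle mice 1 to 4 and 414.5, 366.3, 337.1 and 249.9 CPM in ISOGK mice 1 to 4. The ISOGK livers spanned the whole vehicle range, with mouse 1 the highest and mouse 4 the lowest of the 8. The log2 fold change was -0.11 (95% interval -0.41 to 0.18, edgeR adjusted p = 0.655), so a fall or rise of the size seen in *Abcb11* or *Abcb4* lay outside the interval. Its coefficient of variation was 4.61% with vehicle and 20.2% with ISOGK.

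Neither tested basolateral exporter passed the test. *Abcc3* (chromosome 11, 94343295 to 94392997) had 206.0, 178.8, 207.1 and 209.5 CPM in vehicle mice 1 to 4 and 241.7, 244.1, 201.6 and 141.6 CPM in ISOGK mice 1 to 4. ISOGK mice 1 and 2 were above every vehicle liver and ISOGK mouse 4 was below every one, and the log2 fold change of 0.05 had a 95% interval from -0.28 to 0.38 (edgeR adjusted p = 0.879). *Abcc4* (chromosome 14, 118482692 to 118706219) was scarce, with 6.02, 5.22, 6.93 and 5.40 CPM in vehicle mice 1 to 4 and 5.25, 5.96, 4.64 and 4.92 CPM in ISOGK mice 1 to 4. The groups overlapped, and the log2 fold change was -0.18 (95% interval -0.51 to 0.14, edgeR adjusted p = 0.495).

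*Slc51b* (chromosome 9, 65412714 to 65422955) was at the limit of detection. Vehicle mice 1 to 4 had 1, 4, 2 and 1 counts and ISOGK mice 1 to 4 had 3, 2, 0 and 7 counts. It was left out of the test as too low, and no fold change is given, since a count of 0 allows up to 3 counts. *Slc51a*, which encodes the other chain of the transporter, had 4, 2, 3 and 2 counts in vehicle mice 1 to 4 and 1, 2, 2 and 2 counts in ISOGK mice 1 to 4. A change in either chain was not detectable at this depth. *Slc51b* also overlaps *Rasl12* on the opposite strand, which had at most 5 counts. Of the called members, *Abcb11* overlaps *Gm13613* and *Gm13614* on the opposite strand. *Abcb4* overlaps *Gm17936*, and *Atp8b1* overlaps *AC102268.1* and *AC102268.2*, all on the same strand. *Abcc4* has such overlaps too. None of these overlapping genes of the tested members was among the counted genes, and any sharing of reads was not tested.

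For uptake, *Slc10a1* (chromosome 12, 80953183 to 80968705) had 441.8, 432.9, 452.6 and 437.5 CPM in vehicle mice 1 to 4 and 469.7, 430.6, 479.5 and 386.6 CPM in ISOGK mice 1 to 4. The ISOGK livers lay on both sides of the narrow vehicle range, whose coefficient of variation was 1.90%. The log2 fold change was 0.00 (95% interval -0.21 to 0.21, edgeR adjusted p = 0.994), an interval that leaves room for a change of up to 1.16-fold upwards. *Slc10a2* (chromosome 8, 5083219 to 5105351) had 25.2, 27.4, 12.0 and 16.4 CPM in vehicle mice 1 to 4 and 14.7, 6.70, 11.1 and 12.8 CPM in ISOGK mice 1 to 4. Vehicle mice 1 and 2 were the highest and ISOGK mouse 2 the lowest, while vehicle mouse 3 fell within the ISOGK range. Its log2 fold change of -0.83 had a 95% interval from -1.52 to -0.14 and did not pass adjustment over all genes (edgeR adjusted p = 0.136), although the Wald test of DESeq2 called it (log2 fold change -0.84, adjusted p = 0.0274).

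**Figure D2:**
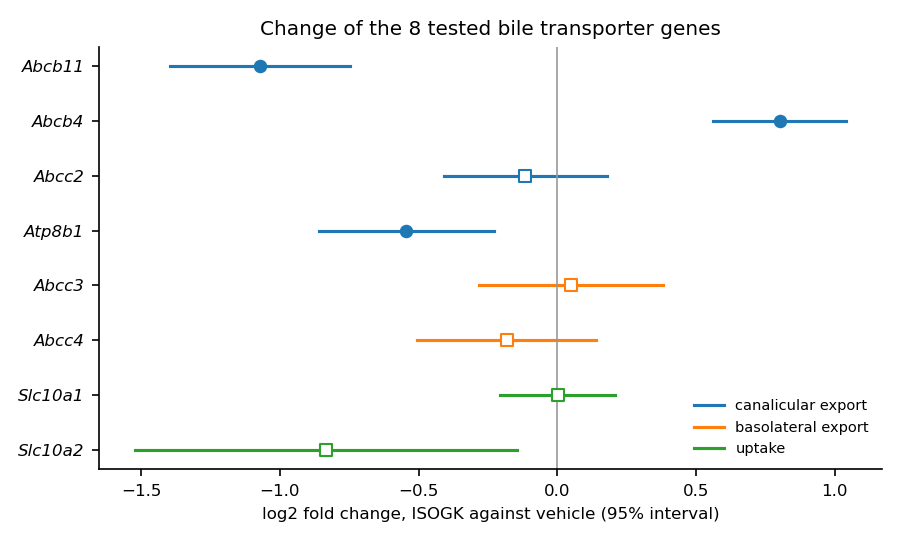
Log2 fold changes of the 8 tested members, ISOGK against vehicle (x axis), with their 95% intervals from edgeR, coloured by role. Filled circles passed an adjusted p of 0.05 and open squares did not. The called members are *Abcb11* (-1.07), *Abcb4* (0.80) and *Atp8b1* (-0.54). All 3 are in the canalicular group, in which *Atp8b1* encodes a flippase. The call of *Atp8b1* was lost in 6 of 8 fits without 1 mouse.

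By role, 3 of 4 canalicular genes, 0 of 2 tested basolateral exporters and 0 of 2 uptake genes were called. The 3 were *Abcb11*, lower, *Abcb4*, higher, and *Atp8b1*, lower, which encodes an inward flippase rather than an exporter. The share over all tested genes was 7.55%, and the call of *Atp8b1* was lost in 6 of 8 fits without 1 mouse. With so few genes a difference between roles was not tested. The unadjusted edgeR p-values of the uncalled members were 0.414 for *Abcc2*, 0.753 for *Abcc3*, 0.243 for *Abcc4*, 0.990 for *Slc10a1* and 0.0231 for *Slc10a2*. The median log2 fold change was -0.33 over the 4 canalicular genes, beside 0.00 over all tested genes. The basolateral and uptake medians, -0.07 and -0.42, were each the midpoint of 2 genes. For uptake these were *Slc10a1* at 0.00 and *Slc10a2* at -0.83, neither of them called.

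Whether the members changed unequally was tested within each liver by the log2 ratio of a pair of transcripts, which does not depend on how libraries are scaled. The log2 ratio of *Abcb4* to *Abcb11* was -1.20, -1.76, -1.23 and -1.41 in vehicle mice 1 to 4 and 0.39, 0.85, 0.18 and 0.56 in ISOGK mice 1 to 4. In every vehicle liver *Abcb11* had more reads than *Abcb4*, and in every ISOGK liver fewer. The ratio was 3.72-fold higher with ISOGK, a difference of 1.89 on the log2 scale (two-sided exact permutation test, p = 0.0286, adjusted p = 0.0286 over 4 pairs). This p is the smallest that 4 mice against 4 allow, and all 4 pairs reached it. Every ISOGK liver lay below every vehicle liver for *Abcb11* and above every one for *Abcb4*. The *Abcb4* to *Abcb11* ratio therefore had to separate the groups, and its p adds no support beyond these genes' own values.

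The remaining pairs compared *Abcb11* with a member that did not pass the test itself. The log2 ratio of *Abcc2* to *Abcb11* rose from -0.57 ± 0.20 to 0.39 ± 0.32 (SD, n = 4 per group), a difference of 0.95 (exact permutation test, adjusted p = 0.0286). That of *Abcc3* to *Abcb11* rose from -1.45 ± 0.26 to -0.34 ± 0.39, a difference of 1.11 (exact permutation test, adjusted p = 0.0286). That of *Abcb11* to *Slc10a1*, export against uptake of bile salts, fell from 0.31 ± 0.19 to -0.77 ± 0.19, a difference of -1.09 (exact permutation test, adjusted p = 0.0286). The groups did not overlap in any of the 4 ratios. All 4 share *Abcb11*, whose own log2 fold change was -1.07, so they are not independent of one another, and these 3 are no evidence of a change in *Abcc2*, *Abcc3* or *Slc10a1*.

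**Figure D3:**
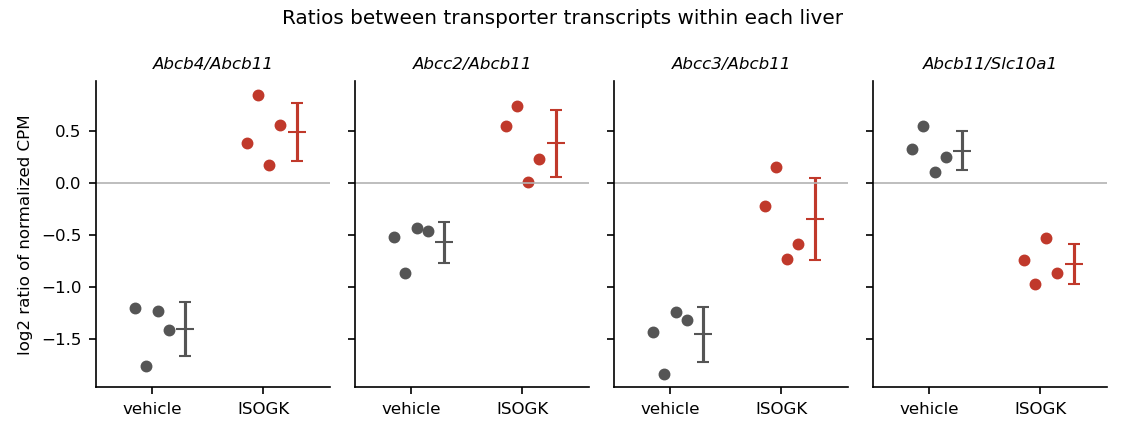
Log2 ratio of normalized CPM between paired transporter genes (y axis) in each of 4 vehicle (grey) and 4 ISOGK livers (red), with the mean ± SD. The grey line marks equal read counts. The groups are apart in all 4 panels, and the *Abcb4* to *Abcb11* ratio crosses 0, from -1.40 on average with vehicle to 0.49 with ISOGK.

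To compare levels between genes, CPM were divided by the length of the gene's merged exons in kilobases. Merged exons take in those of every annotated transcript, with 9383 bases for *Abcb4*, 8532 for *Abcc2* and 5146 for *Abcb11*. Which transcripts the livers used was not determined, so the order of genes and their shares depend on these lengths. In vehicle livers the order was *Slc10a1* (201 ± 3.81 CPM per kb), *Abcb11* (107 ± 12.3), *Abcc2* (43.4 ± 2.00), *Abcc3* (35.2 ± 2.54), *Abcb4* (22.2 ± 2.53), *Atp8b1* (4.91 ± 0.295), *Slc10a2* (4.88 ± 1.75) and *Abcc4* (0.923 ± 0.121), with *Slc51b* last at no more than 0.223 in any liver (SD, n = 4). In this order, *Atp8b1* and *Slc10a2* were the neighbours whose ranges overlapped. In ISOGK livers *Slc10a1* kept the first place at 201 ± 19.3 CPM per kb, and the next 4 genes stood close together. These were *Abcb11* (50.9 ± 11.1), *Abcc2* (40.1 ± 8.10), *Abcb4* (38.8 ± 3.74) and *Abcc3* (36.4 ± 8.41), whose ranges overlapped from each to the next.

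The make-up of the canalicular transcripts shifted accordingly. On the scale of CPM per kb, *Abcb11* made up 58.6, 65.4, 57.6 and 59.0% of the 4 canalicular genes' sum in vehicle mice 1 to 4 and 37.4, 32.8, 43.6 and 38.5% in ISOGK mice 1 to 4. *Abcb4* made up 14.0, 10.6, 13.5 and 12.2% with vehicle and 26.8, 32.3, 27.1 and 31.1% with ISOGK. *Abcc2* went from 24.5 ± 1.94 to 30.03 ± 3.54% and *Atp8b1* from 2.78 ± 0.329 to 2.55 ± 0.524% (SD, n = 4 per group). The sum itself was 178 ± 11.2 CPM per kb with vehicle and 133 ± 19.1 with ISOGK, while that of the basolateral genes was 36.2 ± 2.53 and 37.4 ± 8.32 and that of the uptake genes 206 ± 2.78 and 204 ± 19.4. These shares and sums follow from the members' own values and the exon lengths used, and are a description, with no test.

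**Figure D4:**
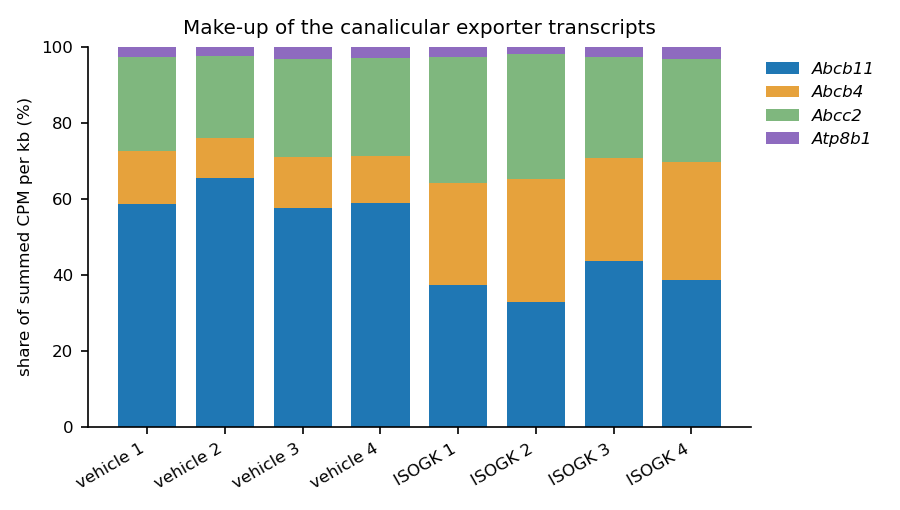
Share of each of the 4 canalicular genes in their summed CPM per kb (y axis, percent) in each of the 8 livers. *Abcb11* (blue) makes up 57.6 to 65.4% in vehicle livers and 32.8 to 43.6% in ISOGK livers, and *Abcb4* (orange) 10.6 to 14.0% and 26.8 to 32.3%.

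*Slc10a2* and *Slc51b* are also genes of bile duct cells, so the 12 cholangiocyte markers were read beside them. All 12 were in the table, and *Cftr*, *Sctr* and *Cdh6* had under 10 counts in every library. Of the 9 tested markers 1 was called higher (*Sox9*, log2 fold change 0.51) and 1 lower (*Anxa4*, -0.32), beside 4.11% and 3.44% of all tested genes. The log2 fold change was positive in 7 of them and negative in 2, and the list's median was 0.52. The summed level of the list was 85.3 to 97.7 CPM in vehicle and 82.9 to 125 CPM in ISOGK livers. *Krt19*, a keratin of bile ducts, had 0.652 to 1.17 CPM with vehicle and 0.943 to 4.12 CPM with ISOGK. It was not called (log2 fold change 1.39, edgeR adjusted p = 0.055). The part of these cells in the values of *Slc10a2* was not tested.

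Markers of other cells were read in the same way. Of the 8 kidney markers only *Slc12a1* was in the table, with at most 2 counts. Of the 8 markers of intestinal epithelium 4 were in the table, and *Vil1*, *Lct* and *Muc2* had under 10 counts in every library, whereas *Fabp2* was measured in all (log2 fold change 0.25, edgeR adjusted p = 0.317). Of 8 macrophage markers 7 had a negative log2 fold change, with a median of -0.54 over the list. *Cd68* alone was called (log2 fold change -0.57), beside 3.44% of all tested genes called lower. Their summed level was 729 to 1033 CPM with vehicle and 591 to 820 with ISOGK. None of 8 endothelial and none of 8 stellate and fibroblast markers was called, with summed levels of 408 to 449 against 393 to 441 CPM and of 280 to 393 against 217 to 414 CPM. The part of these cells in the members' values was not tested. Without vehicle mouse 4, which held the muscle transcripts, the log2 fold changes of *Abcb11* and *Abcb4* were -1.10 and 0.77 and both remained called (edgeR adjusted p = 0.00761 and 0.00917), whereas *Atp8b1* did not, as given above.

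Other transporters and carriers of the liver were taken from a list of 20, of which 19 were tested. Of these 1 was higher and 3 were lower, beside 4.11% and 3.44% of all tested genes. The list's median log2 fold change was -0.39. *Abcb1b*, a multidrug exporter, rose from 0.956 ± 0.113 to 2.33 ± 0.311 CPM (± SD over 4 mice each), which is 1.28 on the log2 scale (edgeR adjusted p = 0.00547), with 18 to 25 counts per vehicle and 38 to 54 per ISOGK library. *Abcg5*, whose product exports sterols into bile as a dimer with ABCG8, fell from 75.8 ± 9.95 to 49.2 ± 7.17 CPM (log2 fold change -0.62, edgeR adjusted p = 0.0109). *Abcg8* had 102 ± 18.9 and 70.1 ± 15.4 CPM and did not pass, although its groups did not overlap (log2 fold change -0.54, edgeR adjusted p = 0.0699). *Abcc6*, a basolateral transporter of the same family as *Abcc2* to *Abcc4*, fell by 0.57 on the log2 scale (edgeR adjusted p = 0.0230), and *Slc22a18* fell by 0.33 (edgeR adjusted p = 0.0369).

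**Figure D5:**
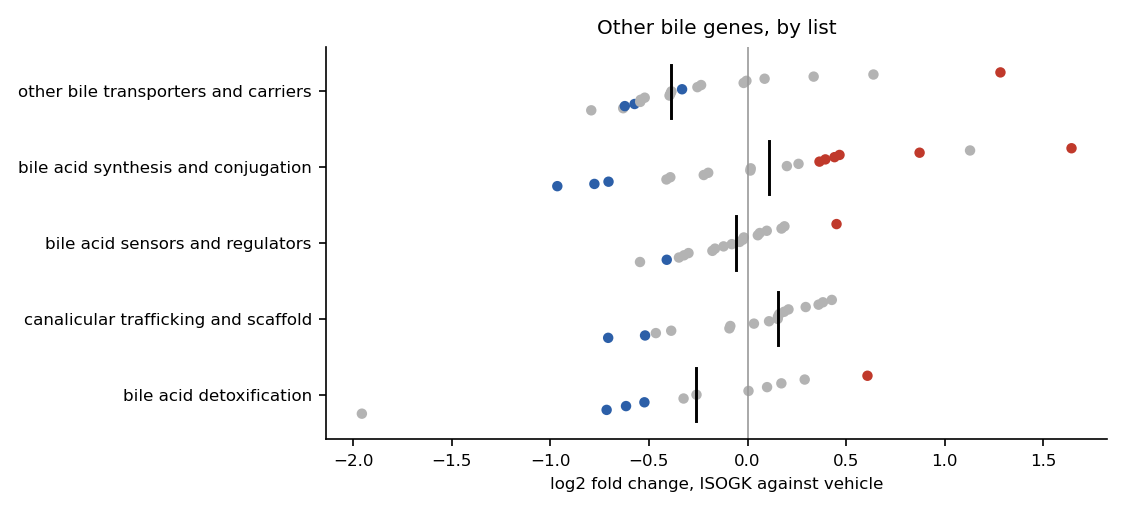
Log2 fold changes (x axis, ISOGK against vehicle) of the tested genes of 5 lists around bile formation, 1 point per gene. Red points were called higher, blue points lower and grey points neither, and black bars are list medians, from -0.39 for the other transporters to 0.15 for trafficking and scaffold genes.

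Genes that place and hold transporters at the canalicular membrane were taken from a list of 18, of which 17 were tested. None was higher and 2 were lower, beside 4.11% and 3.44% of all tested genes, and the median log2 fold change was 0.15. *Slc9a3r1*, whose product NHERF1 is a scaffold that binds membrane transporters, had 98.1, 119.5, 138.6 and 113.5 CPM in vehicle mice 1 to 4 and 84.0, 78.4, 60.2 and 65.3 CPM in ISOGK mice 1 to 4. The groups did not overlap (log2 fold change -0.71, edgeR adjusted p = 0.00813). *Rdx*, which encodes radixin, the linker between ABCC2 and the actin cytoskeleton of the canaliculus, had 146.5, 165.8, 148.6 and 128.3 CPM in vehicle mice 1 to 4 and 108.0, 97.1, 121.2 and 84.8 CPM in ISOGK mice 1 to 4. It too was without overlap (log2 fold change -0.52, edgeR adjusted p = 0.0253).

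Among 18 tested genes of bile acid sensing and control, 1 was higher and 1 lower, beside 4.11% and 3.44% of all tested genes. The median of the list was -0.06 on the log2 scale. *Nr1h4*, encoding the receptor FXR, stood at 107 ± 7.93 CPM in vehicle and 106 ± 17.7 CPM in ISOGK livers (± SD, n = 4 each) (log2 fold change -0.02, 95% interval -0.28 to 0.24, edgeR adjusted p = 0.942). Its target *Nr0b2*, encoding the repressor SHP, had 11.7, 13.6, 20.6 and 10.5 CPM in vehicle mice 1 to 4 and 13.7, 5.28, 16.96 and 2.83 CPM in ISOGK mice 1 to 4. The ISOGK livers were widely spread, with mice 2 and 4 the lowest. The log2 fold change of -0.55 had a 95% interval from -1.79 to 0.70 (edgeR adjusted p = 0.587). *Nr1i3*, encoding the receptor CAR, rose by 0.45 and *Nr3c1*, encoding the glucocorticoid receptor, fell by 0.41 on the log2 scale (edgeR adjusted p = 0.0415 and 0.0376).

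All 18 genes of bile acid synthesis and conjugation were tested. Of them 6 were higher and 3 lower, beside 4.11% and 3.44% of all tested genes, and the list's median was 0.11 on the log2 scale. *Cyp8b1*, the sterol 12-alpha-hydroxylase that directs synthesis to cholic acid, *Acot8*, *Hsd17b4* and *Akr1c6* had the smallest adjusted p-values, with log2 fold changes of 1.64, 0.87, 0.47 and -0.78. *Cyp7a1*, the rate-limiting enzyme of the classical pathway, had 73.5, 103.7, 73.8 and 183.4 CPM in vehicle mice 1 to 4 and 58.9, 131, 93.6 and 47.7 CPM in ISOGK mice 1 to 4, and its log2 fold change of -0.39 did not pass (95% interval -1.37 to 0.59, edgeR adjusted p = 0.626). Of 11 tested genes that sulfate, glucuronidate or otherwise detoxify bile acids, 1 was higher and 3 were lower. Beside these stood 4.11% and 3.44% of all tested genes, and the list's median was -0.26 on the log2 scale. *Ugt2b5* was higher (log2 fold change 0.61) and *Cyp3a11*, *Gsta4* and *Gstm1* were lower (-0.71, -0.62 and -0.52). Reads of *Ugt2b5*, *Cyp3a11* and *Gstm1* may have been split with close copies of these genes.

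The pattern of *Abcb11* over the 8 livers was compared with that of every other tested gene by the root mean square difference of log2 CPM, each centred on its own mean. The most alike were *Nrn1* (0.106), which encodes a neuritin, *Hltf* (0.135), a helicase-like chromatin factor, *Ido2* (0.153), an enzyme of tryptophan breakdown, *Gm35315* (0.153) and *Myo5a* (0.154), a myosin motor. *Nrn1* had 224.6, 266.5, 244.9 and 250.7 CPM in vehicle mice 1 to 4 and 133.5, 102.7, 140.1 and 100.8 CPM in ISOGK mice 1 to 4. As for *Abcb11*, ISOGK mouse 3 was the highest of its group and mice 2 and 4 the lowest, a likeness by which *Nrn1* was picked. *Gm35315* was scarce, with 16 to 21 counts per vehicle and 5 to 9 per ISOGK library. Among the members, *Atp8b1* was the closest to *Abcb11*, at 0.335 and rank 284 of 12306, *Slc10a2* stood at 0.409 and *Abcb4* at 0.976 and rank 11709. Such likeness is over 8 livers that share their groups and is a description, with no test.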

How the data were processed

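Liver RNA of 4 vehicle and 4 ISOGK-treated *Apoe*-/- mice was sequenced. The authors aligned the reads to the mouse genome (mm10 per the labels) with HISAT2 and counted them per gene with StringTie, and the raw counts per gene were deposited. The strand setting and annotation release are not given in the sources used here. Columns named DMSO were taken as the vehicle mice of the same number.

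From these counts, genes were filtered with filterByExpr (minimum count 10, minimum total 15), scaled by TMM and fitted in edgeR 4.0.16 (glmQLFit and glmQLFTest, robust, R 4.3.3) without a block, with Benjamini-Hochberg adjustment over 12307 genes. A gene was called at an adjusted p under 0.05. The common biological coefficient of variation was 0.164. Ratios of members were compared by exact permutation. DESeq2 1.42.0, limma 3.58.1 (voom), other scalings and filters, a replicate block and leaving out each mouse were alternatives. The procedure was tested on simulated data. Of 16540 symbols, 16211 matched GENCODE M21 (GRCm38), which gave positions and exon lengths. Named genes were all members, the called genes of each pathway list (the 4 with the smallest adjusted p where more were called), *Slc51a*, *Nr1h4*, *Nr0b2*, *Cyp7a1* and *Tmem30a* whatever their values, and the 5 genes most like *Abcb11*. *Abcg8* and the single marker genes were named after their values were seen. The members and lists were chosen with earlier results of these data known. Total counts of 17457106 to 24461854 per library leave genes of few reads, such as *Slc51b*, to counting error. The 95% intervals come from the edgeR fit and include the spread between mice, whereas the floor for a count of 0 covers counting error only.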

Additional observations from a re-analysis of the deposited data

Results flagged for a closer look

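The level of *Abcc3* in vehicle mouse 2, 179 CPM, lay apart from the other 3 vehicle livers, which had 206.0 to 209.5 CPM, with a gap of 0.886 of the group's whole range. Among 26 groups of 4 examined for the members and their ratios this was 1 that stood apart, and chance gives about 1 in 20, or 1.3 of 26. Without vehicle mouse 2 the log2 fold change of *Abcc3* was -0.00228, and it was not called with or without this mouse.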

How the results depend on the processing

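*Abcb11* and *Abcb4* kept their direction and their calls under all 16 alternatives, with log2 fold changes from -1.22 to -0.99 and from 0.68 to 0.88. *Atp8b1* kept its direction (-0.67 to -0.40), and its call was lost in 6 of 8 fits without 1 mouse. *Slc10a2* ranged from -1.02 to -0.65, with adjusted p-values from 0.0274 to 0.283. DESeq2 called 1435 genes, and fits without 1 mouse called 379 (without vehicle mouse 2) to 1235 (without ISOGK mouse 3). Leaving out 1 mouse gave 1 to 2 members called lower, and DESeq2 3. The members near 0 changed sign. *Slc10a1* had log2 fold changes of -0.000806 with DESeq2, -0.00357 with voom, -0.000793 with DESeq2 size factors, -0.12 by library size alone, -0.00525 without a filter, -0.00360 with the replicate block and -0.0460 to 0.0598 without 1 mouse. *Abcc3* had -0.0724 by library size alone and -0.0387 to 0.194 without 1 mouse, and *Abcc2* -0.221 to 0.00916 without 1 mouse. Library size alone moved the median of all genes by -0.131. The cause of these moves was not tested.

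The differences in the log2 ratio ranged without 1 mouse from 1.77 to 2.00 for *Abcb4* to *Abcb11*, 0.84 to 1.08 for *Abcc2* to *Abcb11*, 0.94 to 1.24 for *Abcc3* to *Abcb11* and -1.17 to -1.01 for *Abcb11* to *Slc10a1*, with an exact permutation p of 0.0571, the smallest that 3 mice against 4 allow. Paired by replicate number, they were 1.89, 0.95, 1.11 and -1.09 with an exact p of 0.125, the smallest that 4 pairs allow, so neither p bears on stability. The numbers gave no pairing of mice, since deviations of same-numbered mice correlated at 0.0130, -0.0144, 0.0754 and 0.0849, and only vehicle mouse 3 correlated best with its own number. The replicate block gave 827 called genes and changed no member's call. Depth limits *Slc51b* and *Slc51a*, with at most 7 counts in any library.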

Other observations

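The inverted repeat of the *Abcb11* promoter was also found before the start of 26 other genes. Apart from *Abcb11* itself, whose fall prompted the search, 7 of the other 26 were tested, and 1 was called lower, 0 higher and 6 neither, with a median log2 fold change of -0.52. Of all tested genes 3.44% were called lower and 4.11% higher. The called gene was *Adh1*, an alcohol dehydrogenase of hepatocytes (log2 fold change -0.59, edgeR adjusted p = 0.0229). Among the others, *Slco1b2*, a basolateral uptake carrier of organic anions, had a log2 fold change of -0.54 (adjusted p = 0.190), *Saa4* -1.33 (0.0788), *Angptl6* -0.52 (0.0957), *Rtn1* -0.30 (0.644), *Efemp2* -0.11 (0.830) and *Rarg* 0.26 (0.349). These genes were looked up after the values of *Abcb11* were known, and the counts are a description with no test.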
